A study of Mus musculus with 6 samples.

Results

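Cerebellar granule cell markers were followed in bulk RNA-Seq of the cerebellum from 3 control and 3 *Slc39a8*-NSKO mice. The markers are 10 genes, *Neurod1*, *Neurod2*, *Zic1*, *Zic2*, *Pax6*, *Etv1*, *Cbln1*, *Cbln3*, *Fat2* and *Chn2*, chosen by symbol among the 53715 genes of the table. No measured value entered the rule, but the choice was made with earlier results of these data known. All 10 were found, each under 1 gene identifier, and all 10 passed the filter on low counts. *Slc39a8* encodes a metal transporter of the plasma membrane. In the *Slc39a8*-NSKO mice, floxed *Slc39a8* was deleted by Cre recombinase under the Synapsin I promoter, which is active in neurons, and the study notes that this Cre line may not be equally active in every brain region. The mice were 4-week-old males, of strain C57BL/6 per the labels and with both parent lines on C57BL/6J per the methods. The sample labels call the controls WT, while the study's text also speaks of control *Slc39a8* fl/fl mice.

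Granule cells are small glutamatergic neurons that fill the inner layer of the cerebellar cortex and are the most numerous neurons of the brain. They arise after birth from proliferating precursors in the external granule layer, which depend on the transcription factor ATOH1 and on sonic hedgehog, and they migrate inward along Bergmann glia as they mature. Their axons, the parallel fibers, synapse onto Purkinje cell dendrites, where cerebellin 1 released by the granule cell bridges the presynaptic and the postsynaptic membrane. NEUROD1, NEUROD2, ZIC1, ZIC2, PAX6 and ETV1 are transcription factors of this lineage, CBLN1 and CBLN3 are secreted cerebellins, FAT2 is a giant cadherin of parallel fibers, and CHN2 is a GTPase-activating protein for Rac. Several of them are not restricted to granule cells. *Zic1*, *Zic2* and *Pax6* are also active in other cerebellar progenitors or interneurons, *Neurod2* in other excitatory neurons.

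All libraries were deep for genes of this level. Between 14431260 and 20844267 fragments per mouse were assigned to genes, and the counts behind a single marker value ran from 1467 (*Pax6*, control mouse 2) to 34237 (*Cbln3*, *Slc39a8*-NSKO mouse 1). Levels are given below as CPM, counts relative to a library size scaled by the trimmed mean of M values (TMM). The targeted gene itself was scarce in the cerebellum, with 99, 46 and 44 *Slc39a8* counts in control mice and 38, 40 and 41 in *Slc39a8*-NSKO mice. This was 3.60 ± 1.04 against 2.05 ± 0.138 CPM (SD, n = 3 each), without overlap between the genotypes, and a log2 fold change of −0.83 with an SE of 0.237 and an adjusted p-value of 0.534 in edgeR's quasi-likelihood test. The deposited tissue is whole cerebellum, so *Slc39a8* RNA of cells without Synapsin I-Cre is part of these counts.

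The promoters of 8 of the 10 markers were listed in RefSeq (GRCm38.p6), as 13 separate start sites. The 250 bases before each start were searched on both strands for the cAMP-responsive element TGACGTCA, because the study tested a reporter with that element, for its core TGACG, which lies within the full element on both strands, and for the E-boxes CAGATG and CAGCTG, since E-boxes are the sites that NEUROD factors bind. The full element was found before 1 marker start only, that of *Pax6* beginning 76 bases upstream, and in 1.55% of all 32851 promoters. The core was found in *Neurod2* and *Pax6* and in 17.8% of all promoters, CAGATG in *Neurod2* and *Etv1* and in 14.4%, and CAGCTG in *Chn2* and in 4271 promoters. The 2 stretches that hold the full element or both the core and the CAGATG E-box are shown. They belong to *Pax6* and *Neurod2*, the pair with the highest correlation of 45 marker pairs, described below, and were picked after that was seen. A link between the matches and that correlation was not tested. *Neurod1* with *Chn2*, the pair with the next highest correlation, had no match in common. Capitals mark the matched letters, which are the full element in *Pax6*, and the E-box (118 bases upstream) followed by the core (31 bases upstream) in *Neurod2*.
Pax6, chr2:105668646-105668895, plus strand: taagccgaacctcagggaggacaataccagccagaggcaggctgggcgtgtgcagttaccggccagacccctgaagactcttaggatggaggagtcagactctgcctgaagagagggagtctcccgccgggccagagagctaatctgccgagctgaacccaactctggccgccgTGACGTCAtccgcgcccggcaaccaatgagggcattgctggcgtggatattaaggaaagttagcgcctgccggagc
Neurod2, chr11:98329646-98329895, minus strand: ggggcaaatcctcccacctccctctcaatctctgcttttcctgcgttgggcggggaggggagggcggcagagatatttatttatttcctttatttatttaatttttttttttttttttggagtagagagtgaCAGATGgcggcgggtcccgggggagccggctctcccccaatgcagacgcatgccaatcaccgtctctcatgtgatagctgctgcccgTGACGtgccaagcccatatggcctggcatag
These matches describe the sequence and do not show binding in the cerebellum.

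Per unit of transcript length the cerebellins stood highest among the markers and *Pax6* lowest. Levels per length were computed as TPM from the counts and the merged exon length of each gene, and averaged over the 6 mice. *Cbln1* reached 1101 and *Cbln3* 1087 on this scale, and the ranges of these neighbours overlapped. *Zic1* followed at 603.2, *Neurod1* at 490.8, *Chn2* at 378.0 and *Zic2* at 209.5, each separated from its neighbours in every mouse. *Neurod2* at 158.9 and *Fat2* at 149.7 overlapped, and *Etv1* at 99.5 and *Pax6* at 27.4 came last without overlap. For scale, the granule cell GABA-A receptor subunit *Gabra6* reached 722.3 and the Purkinje cell gene *Pcp2* 1283 per unit length, so that the labelled tissue carried the defining RNAs of both cell types. The order in the middle depended on the length used. With the longest annotated transcript in place of all merged exons, *Chn2* (588.9) stood above *Zic1* (489.7) and *Neurod1* (392.4), and *Etv1* (160.9) above *Neurod2* (127.1) and *Fat2* (119.7), while both cerebellins stayed first and *Pax6* (57.8) last.

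**Figure D1:**
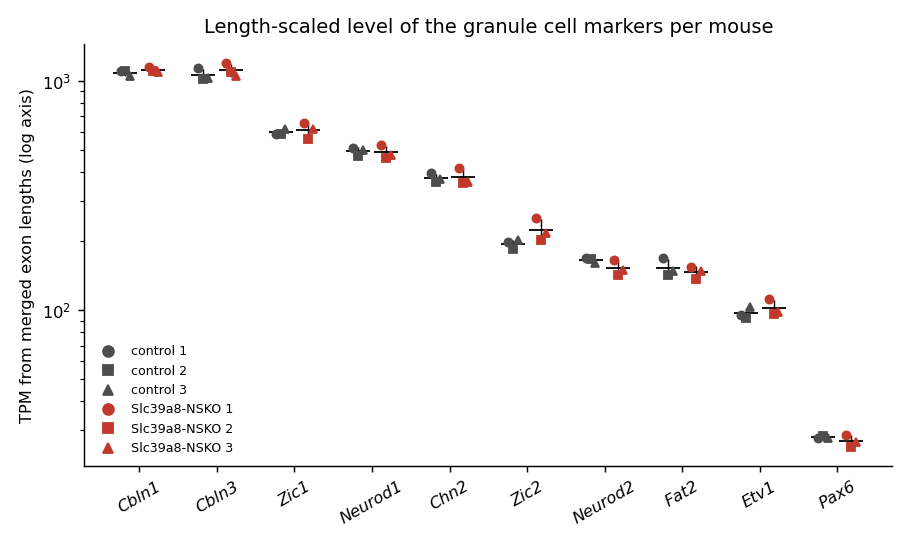
Level per length of each marker (y, log axis, TPM from merged exon lengths) in the 3 control mice (grey) and 3 *Slc39a8*-NSKO mice (red), with the mean (horizontal line) and SD (vertical line) of each genotype. The levels span from 1101 for *Cbln1* to 27.4 for *Pax6* on average over the 6 mice, and the genotypes overlap in each gene but *Zic2*.

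To ask whether neuronal *Slc39a8* deletion came with a different granule cell program, control and *Slc39a8*-NSKO mice were compared by edgeR's quasi-likelihood test over 16330 genes. None of the 10 markers passed the adjusted threshold of 0.05. Their adjusted p-values were between 0.852 and 0.998. Over all genes tested 16 passed, which is 0.098%. At an unadjusted p below 0.05 there were 2 markers, *Zic2* higher and *Neurod2* lower in *Slc39a8*-NSKO mice, where the share of all genes was 5.39%. DESeq2 and limma-voom also called 0 of the 10 markers, each with the same number, 2, at an unadjusted p below 0.05. The groups did not overlap in 1 of 10 markers, *Zic2*, and in 10.3% of all genes tested. On the log2 scale the fold changes lay on both sides of 0, with 5 markers higher and 5 lower and a median log2 fold change of −0.0001 against 0.0011 over all genes. *Slc39a8*-NSKO mouse 1 was the highest of its genotype in every marker, so leaving it out was bound to lower the marker median. Without that mouse the marker median was −0.0522 and that of all genes 0.00197. Without any other single mouse, the marker median lay between −0.0131 and 0.0195. All 10 markers were within 0.2 of 0 on the log2 scale, as were 80.4% of all genes, and 8 of 10 were within 0.1, as were 60.5% of all genes. In whole cerebellum, fewer granule cells and less RNA per granule cell cannot be told apart.

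**Figure D2:**
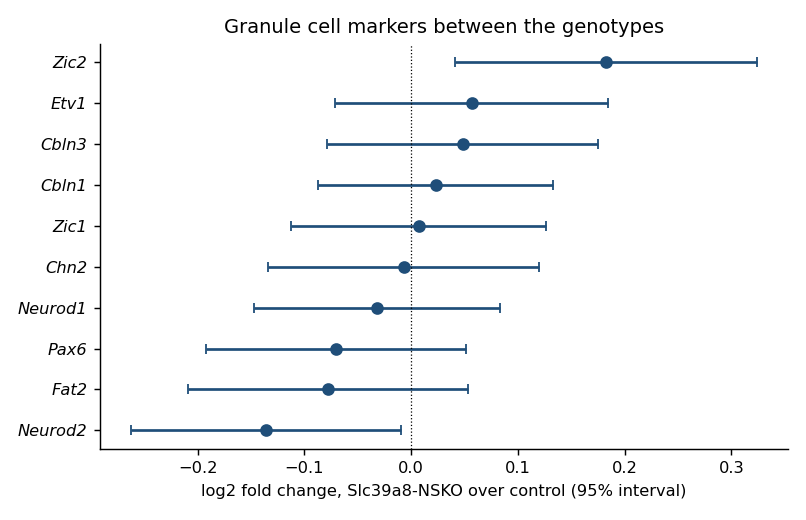
Log2 fold change of each marker (x, *Slc39a8*-NSKO over control, edgeR) with its 95% interval. The intervals of 8 markers include 0, that of *Zic2* (0.18) lies above 0 and that of *Neurod2* (−0.14) below it before adjustment for the number of genes tested.

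Of the basic helix-loop-helix factors, *Neurod1* (ENSMUSG00000034701.9, GRCm38 chromosome 2, 79452521 to 79456751, minus strand) acts in granule cell differentiation and survival. It was at 416.5, 394.8 and 408.7 CPM in control mice and at 422.3, 385.8 and 385.3 CPM in *Slc39a8*-NSKO mice. *Slc39a8*-NSKO mouse 1 was the highest of all 6 and the other two *Slc39a8*-NSKO mice the lowest, so the groups overlapped (means of 406.7 and 397.8 CPM, with SDs of 10.98 and 21.2). The log2 fold change was −0.03, with an SE of 0.0535 and a 95% interval from −0.15 to 0.08.

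*Neurod2* (ENSMUSG00000038255.6, chromosome 11, 98325415 to 98329648, minus strand) is a related factor of later neuronal differentiation. It was at 159.6, 161.0 and 150.6 CPM in control mice and at 153.0, 136.0 and 139.8 CPM in *Slc39a8*-NSKO mice. Of the *Slc39a8*-NSKO mice, 2 were below every control and mouse 1 was above control mouse 3. Means were 157.1 ± 5.69 and 142.9 ± 8.95 CPM, and the log2 fold change was −0.14 (SE 0.0587, 95% interval −0.26 to −0.0097). In edgeR its p-value was 0.0368 before adjustment over all genes and 0.908 after it. An exact two-sided permutation test over the 6 mice gave p = 0.2, where 0.1 is the smallest value that 3 against 3 mice allow.

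Of the zinc finger factors, *Zic1* (ENSMUSG00000032368.14, chromosome 9, 91358058 to 91365810, minus strand), which acts in granule cell precursors and stays on in mature granule cells, was at 1001, 1032 and 1053 CPM in control mice and at 1097, 967.9 and 1036 CPM in *Slc39a8*-NSKO mice. The *Slc39a8*-NSKO mice held both the highest and the lowest of the 6 values, and the log2 fold change was 0.01 (SE 0.0554, 95% interval −0.11 to 0.13).

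*Zic2* (ENSMUSG00000061524.8, chromosome 14, 122475435 to 122479852, plus strand), a close paralog best known from forebrain and cerebellar patterning, was the marker with the lowest p-value. It was at 170.5, 164.5 and 173.9 CPM in control mice and at 213.5, 178.6 and 185.5 CPM in *Slc39a8*-NSKO mice. Every *Slc39a8*-NSKO mouse was above every control, with *Slc39a8*-NSKO mouse 1 well above the rest. Means were 169.6 ± 4.76 and 192.5 ± 18.5 CPM and the log2 fold change was 0.18 (SE 0.0658, 95% interval 0.04 to 0.32), which is 13.5% with an interval from 2.86% to 25.2%. Its unadjusted p of 0.0155 did not survive adjustment over all genes (adjusted p of 0.852, edgeR), and the exact permutation test gave its smallest possible value, p = 0.1. Without *Slc39a8*-NSKO mouse 1 the log2 fold change was 0.10, with an unadjusted edgeR p of 0.087.

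*Pax6* and *Etv1* overlapped between the genotypes. *Pax6* (ENSMUSG00000027168.21, chromosome 2, 105668900 to 105697364, plus strand), a paired-box factor of precursors and mature granule cells, was at 96.7, 102.0 and 96.7 CPM in control mice and at 98.4, 90.7 and 92.1 CPM in *Slc39a8*-NSKO mice. Again 2 *Slc39a8*-NSKO mice lay below the controls and *Slc39a8*-NSKO mouse 1 among them, with a log2 fold change of −0.07 (SE 0.0567, 95% interval −0.19 to 0.05). *Etv1* (ENSMUSG00000004151.17, chromosome 12, 38779380 to 38870484, plus strand), an ETS factor that responds to neuronal activity during granule cell maturation, was at 379.4, 379.5 and 409.6 CPM in control mice and at 437.5, 390.9 and 386.7 CPM in *Slc39a8*-NSKO mice. Here *Slc39a8*-NSKO mouse 1 was the highest, and the other two lay within the controls' range. Its log2 fold change was 0.06 (SE 0.0593, 95% interval −0.07 to 0.18).

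Of the cerebellins, *Cbln1* (ENSMUSG00000031654.16, chromosome 8, 87468405 to 87472609, minus strand) was among the steadiest markers. It was at 1004, 1034 and 951.6 CPM in control mice and at 1028, 1025 and 984.6 CPM in *Slc39a8*-NSKO mice, so that all *Slc39a8*-NSKO values lay within the control range. The log2 fold change was 0.02, and its 95% interval ran from 5.85% lower to 9.62% higher in *Slc39a8*-NSKO mice.

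*Cbln3* (ENSMUSG00000040380.14, chromosome 14, 55878913 to 55884392, minus strand), a cerebellin that leaves the endoplasmic reticulum in complexes with CBLN1, was the most abundant marker by count. It was at 1651, 1528 and 1505 CPM in control mice and at 1714, 1622 and 1508 CPM in *Slc39a8*-NSKO mice. The groups overlapped over most of their range, with a log2 fold change of 0.05 (SE 0.0591, 95% interval −0.08 to 0.18).

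*Fat2* and *Chn2* also overlapped. *Fat2* (ENSMUSG00000055333.14, chromosome 11, 55250609 to 55336564, minus strand) was at 731.8, 634.6 and 645.9 CPM in control mice and at 659.5, 609.2 and 638.7 CPM in *Slc39a8*-NSKO mice. The highest value came from control mouse 1, and the log2 fold change was −0.08 (SE 0.0609, 95% interval −0.21 to 0.05), or −0.00887 without that mouse. *Chn2* (ENSMUSG00000004633.17, chromosome 6, 54039554 to 54301810, plus strand) was at 687.5, 647.6 and 649.1 CPM in control mice and at 714.1, 638.7 and 621.7 CPM in *Slc39a8*-NSKO mice. The *Slc39a8*-NSKO mice stood on both sides of the controls, and the log2 fold change was −0.01 (SE 0.059, 95% interval −0.13 to 0.12). Across the 8 markers other than *Zic2* and *Neurod2*, the 95% intervals stayed between 13.5% lower (*Fat2*) and 13.6% higher (*Etv1*) in *Slc39a8*-NSKO mice. Those of *Zic2* and *Neurod2* reached further, to 25.2% higher and to 16.6% lower. Each interval is for a single gene's relative level and is not adjusted for the number of genes tested. It does not bound a difference in granule cell number.

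The granule cell markers together took up 0.626%, 0.606% and 0.605% of all counts in control mice and 0.652%, 0.606% and 0.599% in *Slc39a8*-NSKO mice. The highest and the lowest share both came from *Slc39a8*-NSKO mice. *Slc39a8*-NSKO mouse 1 had the highest value of its genotype in 10 of 10 markers, which happened in 35.2% of all genes tested, and the highest of all 6 mice in 6 of 10, against 18.4% of all genes. Relative to the control mean, the median marker stood at 105.2% in *Slc39a8*-NSKO mouse 1, at 95.7% in mouse 2 and at 95.9% in mouse 3. In the same mouse 1 the Purkinje cell list (7 genes, among them *Pcp2* and *Calb1*) summed to 5339 CPM, against 6020 and 5455 CPM in *Slc39a8*-NSKO mice 2 and 3. The sums in control mice were 5654, 5265 and 5325 CPM, so that *Slc39a8*-NSKO mouse 1 lay within the control range. The ratio of the summed granule cell markers to the summed Purkinje cell list was 1.22, 1.004 and 1.10 in *Slc39a8*-NSKO mice and 1.11, 1.15 and 1.14 in control mice, so that the *Slc39a8*-NSKO mice bracketed the controls. These ratios were formed after the values were seen and were not tested. *Slc39a8*-NSKO mouse 1 also had the most counts of its genotype (20030339), as did control mouse 1 (20844267), and the part of depth was not tested.

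**Figure D3:**
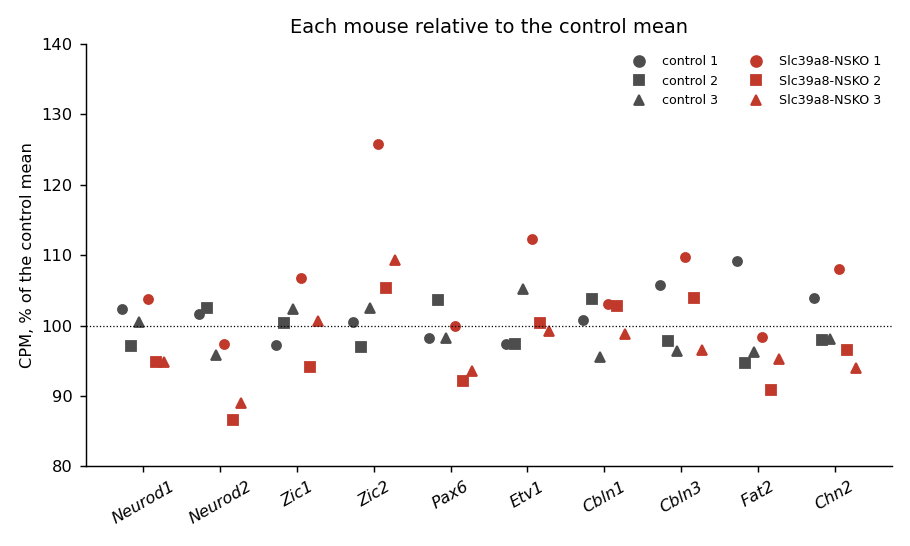
CPM of each marker in each mouse (y, percent of the control mean, axis from 80 to 140), with control mice in grey, *Slc39a8*-NSKO mice in red and the control mean as a dotted line. *Slc39a8*-NSKO mouse 1 (red circles) is the highest *Slc39a8*-NSKO mouse in each of the 10 genes and reaches 125.8% in *Zic2*, and *Slc39a8*-NSKO mice 2 and 3 are lowest in *Neurod2*, at 86.6% and 89.0%.

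The spread of the markers between mice was small. The biological coefficient of variation, from edgeR's dispersion of each gene moderated across genes, ran from 4.91% (*Cbln1*) to 5.96% (*Zic2*). Its median was 5.42%, where the median of all genes tested was 7.48%. The moderation narrows this range. The unmoderated coefficient of variation of CPM, pooled over the genotypes, ran from 3.395% (*Cbln1*) to 7.07% (*Zic2*). Its median over all genes tested was 8.26%. Counting error alone was between 0.588% and 2.40%. Ranked among all genes tested, the markers' moderated coefficients lay between the 6.57th and the 31.0th percentile, a comparison that was not matched on level.

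Marker values varied together across the 6 mice in most pairs. Of 45 pairs, 36 had a positive Pearson correlation of log2 CPM, with a median r of 0.444. The highest were *Neurod2* with *Pax6* (r = 0.921) and *Neurod1* with *Chn2* (r = 0.918), and the lowest was *Neurod2* with *Zic2* (r = −0.245). All pairs share the same 6 libraries. Outside the markers, the genes whose profile was most like the markers' mean profile included *Hcfc2* (r = 0.983), *Rnf216* (0.980), *Hipk3* (0.9754) and *Faim2* (0.972), among 10280 genes with a mean of at least 10 CPM, of which 112 (1.09%) had an r of at least 0.9. *Hcfc2* was at 33.1, 31.6 and 30.4 CPM in control mice and at 35.7, 30.04 and 29.2 CPM in *Slc39a8*-NSKO mice. Its highest mouse, *Slc39a8*-NSKO mouse 1, was also that of 6 of the markers, which follows from its selection by likeness to them.

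Because *Neurod1* and *Neurod2*, *Zic1* and *Zic2*, and *Cbln1* and *Cbln3* are paralogs, the share of the first in each pair was also taken within each mouse, a measure that does not depend on the total of the pair. *Neurod1* made up 72.3%, 71.0% and 73.1% of its pair in control mice and 73.4%, 73.9% and 73.4% in *Slc39a8*-NSKO mice. Every *Slc39a8*-NSKO mouse was above every control, by 1.44 percentage points on average (0.884 without control mouse 2). *Zic1* made up 85.4%, 86.2% and 85.8% of its pair in control mice and 83.7%, 84.4% and 84.8% in *Slc39a8*-NSKO mice, here with every *Slc39a8*-NSKO mouse below the controls, by −1.52 points on average. *Cbln1* made up 39.0 ± 1.28% against 38.6 ± 1.02% (SD, n = 3 each) and overlapped. Exact two-sided permutation tests gave p = 0.1 for the *Neurod* and *Zic* shares, the smallest value possible here, and p = 0.7 for the cerebellins, or 0.15, 0.15 and 0.7 after Benjamini-Hochberg adjustment over the 3 pairs. The separation of the *Neurod* and *Zic* shares is built from the same counts as the single-gene results for *Neurod2* and *Zic2* and is not independent of them.

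**Figure D4:**
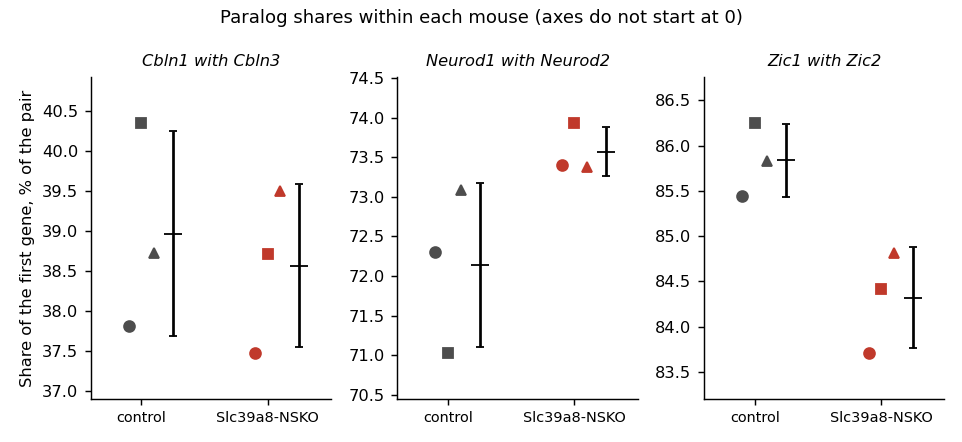
Share of *Cbln1*, *Neurod1* and *Zic1* in the summed counts of each paralog pair (y, percent, axes not starting at 0) in each control (grey) and *Slc39a8*-NSKO (red) mouse, with mean ± SD. The *Neurod1* share is higher in each *Slc39a8*-NSKO mouse than in each control (73.6% against 72.1% on average), the *Zic1* share lower (84.3% against 85.8%), and the *Cbln1* shares overlap.

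None of 51 further tested genes in 5 lists around the markers passed the threshold, of 57 listed. Of the 51, 4 had an unadjusted p below 0.05 and 6 did not overlap between the genotypes, where the shares over all genes were 5.39% and 10.3%. Mature granule cell genes (13 of 13 tested) had a median log2 fold change of −0.02. The vesicular glutamate transporter *Slc17a7* was at 596.7 ± 14.8 and 590.2 ± 20.3 CPM in control and *Slc39a8*-NSKO mice, the metabotropic glutamate receptor *Grm4* at 571.2 ± 19.5 and 546.3 ± 37.9 CPM, and *Gabra6* at 537.2 ± 11.7 and 542.5 ± 34.9 CPM. The lowest p-values of this list were those of *Rbfox3*, which encodes the neuronal antigen NeuN (log2 fold change 0.12, SE 0.0503, unadjusted p of 0.0346, adjusted p of 0.908 in edgeR), and *Cdh15*, the M-cadherin of granule cells (−0.18, SE 0.0769, unadjusted p of 0.0374, adjusted p of 0.908), followed by *Reln* (0.11, SE 0.0653). *Rbfox3* was at 360.2, 350.3 and 366.3 CPM in control mice and at 406.4, 380.3 and 382.2 CPM in *Slc39a8*-NSKO mice, without overlap. *Calb2* did not overlap in the other direction. It was at 399.1, 426.8 and 397.9 CPM in control mice and at 396.1, 393.9 and 374.1 CPM in *Slc39a8*-NSKO mice.

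Immature and migrating granule cell genes (9 of 10 tested) had a median of −0.03. The axonal adhesion molecule *Cntn2* was at 438.1, 448.1 and 433.3 CPM in control mice and at 406.5, 395.0 and 420.2 CPM in *Slc39a8*-NSKO mice. Every *Slc39a8*-NSKO mouse was below every control, with a log2 fold change of −0.11 (SE 0.0489, unadjusted p of 0.0398, adjusted p of 0.908 in edgeR). The neuronal tubulin *Tubb3* overlapped at 226.5 ± 7.98 and 222.2 ± 11.9 CPM, and the scarce *Dcx*, a microtubule-associated protein of migrating neurons, and *Cxcr4*, a chemokine receptor, were at 6.18 against 5.26 and at 1.74 against 1.34 CPM.

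Of the precursor genes, *Atoh1* had 0 counts in all 6 mice, which allows up to 3 counts in each library, and the proliferation marker *Mki67* had 10, 10 and 13 counts in control mice and 14, 9 and 15 in *Slc39a8*-NSKO mice. The list (12 of 15 tested) had a median log2 fold change of −0.03. Without *Atoh1* counts and with few of *Mki67*, that median cannot be taken as a measure of precursors. Which cells gave the other listed RNAs was not tested. The most abundant genes of the list were *Ptch1*, the sonic hedgehog receptor (208.5 ± 21.2 and 208.9 ± 16.6 CPM), and *Pcna*, the DNA replication clamp (60.4 ± 2.74 and 58.3 ± 2.62 CPM). The lowest unadjusted p-values were those of *Ccnd2*, a cyclin of granule cell precursors (8.43 ± 0.476 and 9.83 ± 0.444 CPM, higher in every *Slc39a8*-NSKO mouse, unadjusted p of 0.0837 in edgeR), *Gli2*, a transcription factor of the hedgehog pathway (6.88 ± 0.863 and 5.87 ± 0.306 CPM, lower in every *Slc39a8*-NSKO mouse), and *Sfrp1*, a secreted Wnt inhibitor (4.45 ± 0.195 and 5.14 ± 0.632 CPM).

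Among the paralogs of the markers (11 of 13 tested, median 0.01), *Neurod6* had the lowest p-value. It was at 7.38, 6.26 and 7.90 CPM in control mice and at 4.71, 5.24 and 5.63 CPM in *Slc39a8*-NSKO mice. No values overlapped, and the log2 fold change was −0.47 (SE 0.149, unadjusted p of 0.0072, adjusted p of 0.678 in edgeR). In the *Zic* family, *Zic4* was at 43.8 against 45.5 CPM and *Zic5* at 67.7 against 70.2 CPM, with overlap and log2 fold changes of 0.06 and 0.05. *Etv4* (−0.01), *Etv5* (0.12), *Fat1* (0.02), *Fat3* (0.004), *Fat4* (0.14), *Chn1* (0.01) and the scarce *Cbln4* (−0.68, SE 0.469) all overlapped between the genotypes. *Neurod4* had 0 counts in every mouse.

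The synaptic partners of the cerebellins (6 of 6 tested, median 0.03) overlapped throughout. The receptor gene *Grid1* was at 21.2 ± 2.68 and 22.1 ± 2.62 CPM. Of the neurexins, presynaptic receptors for the cerebellins, *Nrxn2* had a log2 fold change of 0.01 and *Nrxn3* of −0.003.

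**Figure D5:**
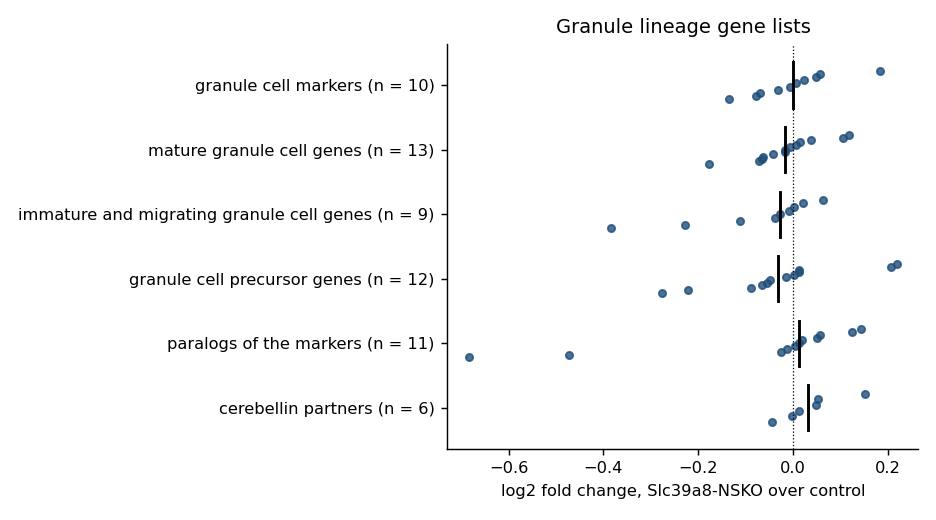
Log2 fold change (x, *Slc39a8*-NSKO over control, edgeR) of each tested gene in the marker list and in 5 further granule lineage lists, with the list median as a black bar and 0 as a dotted line. The medians lie between −0.03 and 0.03, and no gene passed the adjusted threshold.

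Markers of other cells were compared in the same way, and their part in the marker values was not tested. All 6 Bergmann glia and astrocyte genes had positive log2 fold changes (median 0.13, summed level 1973 to 2282 CPM in control mice and 2339 to 2394 CPM in *Slc39a8*-NSKO mice), led by the intermediate filament gene *Gfap* at 201.5 ± 35.1 and 267.0 ± 14.2 CPM (adjusted p of 0.301, edgeR). All 4 choroid plexus genes were also positive (median 0.38, 759.7 to 1097 and 891.3 to 1538 CPM), as were all 5 microglia genes (median 0.18, 83.9 to 92.7 and 99.6 to 102.2 CPM). Of the choroid plexus genes, *Folr1* did not overlap, at 2.34 ± 0.332 and 4.58 ± 1.06 CPM (adjusted p of 0.228, edgeR). Oligodendrocyte genes were negative in 5 of 5 (median −0.07, 7670 to 8756 and 7118 to 8631 CPM) and endothelial genes in 4 of 4 (median −0.08, 112.4 to 123.1 and 108.5 to 122.9 CPM). Both markers of unipolar brush cells, the other excitatory cell type of the granule layer, were negative, with *Eomes* at 33.8, 53.0 and 74.2 CPM in control mice and at 41.9, 24.1 and 37.4 CPM in *Slc39a8*-NSKO mice. The Purkinje cell list (7 of 7 tested) and the inhibitory interneuron list (6 of 6) both had a median of 0.02. Of 6 genes of cerebral cortex and striatum 4 were tested (median 0.13), and of 8 brainstem and midbrain genes 2 (median −0.32). No gene of these lists passed the threshold. At an unadjusted p below 0.05 in edgeR, 3 of 6 astrocyte genes, 3 of 4 choroid plexus genes and 1 of 5 microglia genes were higher. One unipolar brush cell gene, *Eomes*, was lower at that level, where the share of all genes was 5.39%. The genotypes did not overlap in 3 astrocyte, 2 microglia and 1 choroid plexus genes, and in 10.3% of all genes.

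Some markers share genomic sequence with other genes, which bears on how reads were assigned to them. *Neurod1* shares 201 exon bases on the same strand with *Cerkl* (113 to 140 counts per mouse) and 154 on the opposite strand with *Gm26755*, and *Chn2* shares 552 and 65 exon bases with *9130019P16Rik* and *Gm15527*. *Zic1* shares 60 exon bases with *Zic4* on the opposite strand, their 5′ ends lying 3397 bases apart. *Cbln1* overlaps the transcribed region of the long noncoding RNA gene *Gm2694* on the opposite strand with no shared exon bases, and *Gm2694* was at 87.7 ± 1.42 and 86.4 ± 4.64 CPM. The estimated counts of *Etv1* and *Chn2* were not whole numbers (within 1e-06) in any of the 6 mice, as RSEM gives where reads are divided among genes, while those of the other 8 markers were whole.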

How the data were processed

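RNA-Seq libraries were made from cerebellum RNA of 3 control and 3 *Slc39a8*-NSKO mice. Per the labels and the study's methods, the authors aligned paired-end reads with STAR to mm10 and estimated expected counts per gene with RSEM; versions are not given in the sources used here, nor is the strand setting of the counting. The deposited values are expected counts for 53715 genes, not normalized, and 92 spike-in entries of at most 5 counts, left out here. Counts were rounded and tested in edgeR 4.0.16 (R 4.3.3) with TMM normalization, filterByExpr, a quasi-likelihood test of genotype and Benjamini-Hochberg adjustment over 16330 genes at 0.05. The fit was tested on simulated data in which 200 genes changed by more than any marker did here. That test does not bear on differences as small as those of the markers. DESeq2 1.42.0, limma-voom 3.58.1, other normalizations and filters and leaving out each mouse were alternatives. Lengths and positions came from GENCODE annotation of GRCm38.

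The markers, lists and tests were chosen with earlier results of these data known. Named genes were all markers, their tested paralogs and the cerebellin partners, for the other granule lists the 3 lowest p-values and the 2 highest levels, *Gabra6*, *Atoh1*, *Mki67* and *Pcp2* as defining markers, *Slc39a8*, genes overlapping a marker, and the 5 genes nearest to the markers' mean profile; *Gfap*, *Eomes* and *Neurod4* were added after their values were seen. Some genes that this rule names are not reported here. Each library was treated as 1 mouse, as the methods state; a legend of the study calls the replicates technical, in which case the p-values would cover technical spread only. For the markers, counting error was below the spread between mice; genes with few counts, such as *Mki67* and *Slc39a8*, are limited by depth as well.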

Additional observations from a re-analysis of the deposited data

How the results depend on the processing

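No marker passed the threshold under any of 14 alternatives (lowest adjusted p of 0.193, *Zic2* without a filter), and no gene of the 5 other granule lists did; 133 of 140 marker fold changes kept their direction. Over all genes, 16 calls among 16330 genes became 178 without a filter on low counts (27187 genes) and 37 with DESeq2, which had p-values for 27181 genes so that tool and gene set both changed, and 9 (without *Slc39a8*-NSKO mouse 2) to 38 (without control mouse 1) when each mouse was left out; the cause was not tested. The 7 that reversed all came from leaving out a mouse, with log2 fold changes from −0.0363 to 0.0528 for *Zic1*, from −0.000544 to 0.0962 for *Etv1*, from −0.00741 to 0.0501 for *Cbln1* and from −0.0680 to 0.0329 for *Chn2*. *Zic2* kept its direction, from 0.10 to 0.23, and so did *Neurod2*, from −0.19 to −0.10. *Neurod1* ran from −0.0753 to −0.00893, *Pax6* from −0.105 to −0.0443, *Cbln3* from 0.00496 to 0.0958 and *Fat2* from −0.116 to −0.00887, the last value without control mouse 1. The median of the markers ran from −0.0522 (without *Slc39a8*-NSKO mouse 1) to 0.0195. The median of the precursor list ran from −0.0561 to 0.0201 when each mouse was left out, the latter without *Slc39a8*-NSKO mouse 2. The difference in the *Neurod1* share ran from 0.884 (without control mouse 2) to 1.91 points (without control mouse 3) and that in the *Zic1* share from −1.77 to −1.22. The difference in the *Cbln1* share ran from −0.973 to 0.292 points. It was positive when control mouse 2 was left out (0.292) and when *Slc39a8*-NSKO mouse 1 was (0.145).

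Replicate numbers are shared between the genotypes, but same-numbered mice deviated together only weakly (r of 0.142, 0.116 and 0.0104), and control mouse 3 correlated best with *Slc39a8*-NSKO mouse 1, so the numbers were not taken as pairs. A fit with the replicate block called 41 genes and 0 markers. At these depths counting error of a marker was at most 2.40%, below its spread between mice.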
